A study of Mus musculus with 12 samples.

Results

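The cell cycle and DNA replication genes are 38 of the 21930 genes in the deposited count table, taken by gene name. All 38 were found. They comprise 13 S-phase genes, which license replication origins and make or carry the DNA copying machinery, 23 mitotic genes, and *Ccnd1* and *Cdkn1a*, which act in G1 and in arrest. The 12 libraries came from the eyes of wild type male C57BL/6J mice, 3 per group. From 8 weeks of age the mice ate ad libitum (AL) or followed intermittent fasting (IF), with 24 h without food alternating with 24 h of feeding, for 12 weeks. They then received 1 intraperitoneal injection of PBS or of sodium iodate (NaIO3, 25 mg/kg), an oxidant that damages the retinal pigment epithelium (RPE), and tissue was taken 7 days later, each mouse staying on its diet until then. The groups were therefore AL + PBS, IF + PBS, AL + NaIO3 and IF + NaIO3, with no genetic modification in any of them. The study states 3 mice per group. The labels number the libraries without naming the animal, so if any shared an animal the p-values would measure technical spread in part.

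Cells that enter the cycle switch on genes in waves. Cyclin D and its kinases release E2F factors from the retinoblastoma protein in G1, E2F then drives the S-phase genes, and a later wave of mitotic genes is switched on through the MuvB complex with B-Myb and FoxM1. p21, the product of *Cdkn1a*, is a p53 target that inhibits cyclin-dependent kinases and holds cells in arrest. Neurons and photoreceptors of the adult mouse retina and its RPE are largely out of cycle. Microglia, Müller glia, endothelium and infiltrating leukocytes can divide after injury. Many S-phase proteins also serve in DNA repair, so their transcripts do not fall to zero in resting cells.

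The libraries held 26364665 to 43046950 counts, so 3 counts in a library corresponded to 0.0697 to 0.114 CPM (counts scaled to library size) on the raw totals. The other CPM values given were also scaled by TMM factors of 0.935 to 1.12, which shifts this floor slightly. The tissue is labelled as the RPE, choroid and sclera complex and was described in the methods as the eye cup. Transcripts of rods and cones nevertheless summed to 21300 to 69500 CPM over 17 markers, against 1870 to 3980 CPM for 16 RPE markers, so neural retina RNA was present in each library. AL + NaIO3 replicate 3 stood apart from the other libraries. Its 18 microglia and macrophage markers summed to 1210 CPM, against 305 and 239 CPM in the other AL + NaIO3 libraries and 76.6 to 109 CPM in the remaining groups, its stroma markers to 1870 CPM against 298 to 480 CPM in the other 11 libraries, and its rod and cone sum was the lowest at 21300 CPM. AL + PBS replicate 2 held 315 CPM of lens markers, against at most 13.7 CPM elsewhere. AL + NaIO3 replicate 2 had 797 CPM of corneal and conjunctival epithelium markers, a dividing tissue, against 30.4 to 249 CPM elsewhere. In bulk tissue, fewer cells of a type and less RNA per cell cannot be told apart.

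The promoters of S-phase and mitotic genes are known for different motifs, and those of 6 members whose counts are described further on are shown for that reason. The RefSeq promoter table (GRCm38.p6, 250 bases before to 50 bases after each annotated start) held 31 of the 38 genes. Capitals mark 3 motifs, searched on both strands: the cell cycle genes homology region or CHR (TTTGAA), which MuvB binds; the CCAAT box (CCAAT), which NF-Y binds; and an E2F match (TTCCCGC or TTCGCGC or TTGCCGC or TTGGCGC). A reverse-strand E2F match ending in CCAA can run into a CCAAT box. The *Top2a* bases run from -200 to -48 relative to the start (chr11:99024237-99024389, minus strand), those of *Cdk1* from -200 to -31 (chr10:69352943-69353112, minus strand), those of *Mcm5* from -200 to -1 (chr8:75109309-75109508, plus strand) and those of *Mcm6* from -200 to -75 (chr1:128359780-128359905, minus strand). For *Mki67* (chr7:135716469-135716498, minus strand) and *Ccnb1* (chr13:100786567-100786596, minus strand) 30 bases are given.
Top2a: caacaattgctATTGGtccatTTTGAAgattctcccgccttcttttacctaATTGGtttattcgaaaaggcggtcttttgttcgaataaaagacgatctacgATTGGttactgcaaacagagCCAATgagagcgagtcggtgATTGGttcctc
Cdk1: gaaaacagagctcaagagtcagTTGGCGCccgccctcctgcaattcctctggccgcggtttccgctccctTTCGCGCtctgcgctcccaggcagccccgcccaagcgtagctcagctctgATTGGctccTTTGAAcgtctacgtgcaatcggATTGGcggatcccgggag
Mki67: gaaTTTGAAccgccgttttggTTTGAAtcg
Ccnb1: aacccgcgGCGCCAATgggaagagagcgag
Mcm5: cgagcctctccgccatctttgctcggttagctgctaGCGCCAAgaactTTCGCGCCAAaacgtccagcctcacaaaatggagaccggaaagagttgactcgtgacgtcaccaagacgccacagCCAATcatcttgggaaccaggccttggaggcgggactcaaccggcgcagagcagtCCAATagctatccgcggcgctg
Mcm6: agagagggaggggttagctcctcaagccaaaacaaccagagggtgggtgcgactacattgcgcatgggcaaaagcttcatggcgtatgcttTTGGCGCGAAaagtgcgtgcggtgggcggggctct

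Of the 19 mitotic genes with a promoter in the table, 14 (73.7%) held a CHR, against 1 of 11 S-phase genes (9.09%, *Mcm2*) and 20.2% of all 27025 genes in the table. An E2F match was present in 6 of the 11 S-phase genes (54.5%: *Mcm3*, *Mcm5*, *Mcm6*, *Mcm7*, *Rrm1* and *Rrm2*), in 3 of the 19 mitotic genes (15.8%: *Mki67*, *Cdk1* and *Ccnb1*) and in 10.9% of all genes. The CCAAT box was shared by both classes, at 72.7% of S-phase and 89.5% of mitotic genes against 41.1% of all genes. *Top2a* carried CHR matches at -179 and -23, *Mki67* at -116 and -98, and *Cdk1* at -71 and -15, while the *Ccnb1* window held none. The matches at -23 in *Top2a* and -15 in *Cdk1* lie outside the bases printed. These matches describe letters in a window and do not show binding.

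**Figure D1:**
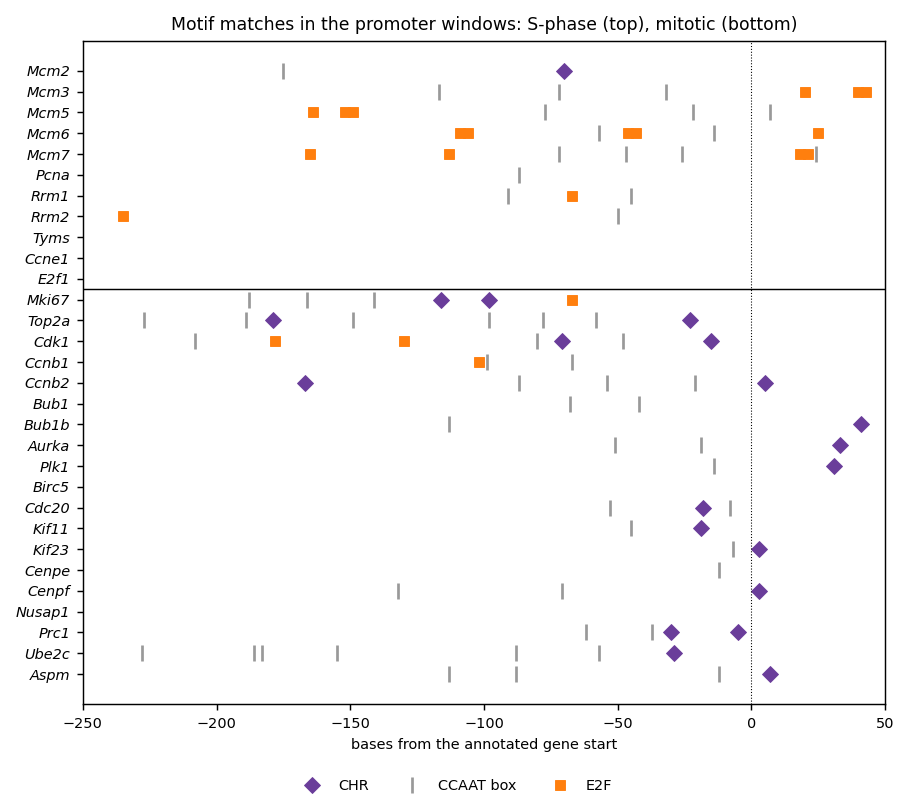
Positions of CHR (diamonds), CCAAT box (bars) and E2F matches (squares) in bases from the annotated gene start, 1 row per gene, with 11 S-phase genes above the line and 19 mitotic genes below it; *Tyms*, *Ccne1*, *E2f1*, *Birc5* and *Nusap1* had no match. CHR matches lie in 14 mitotic rows and 1 S-phase row, and E2F matches in 6 S-phase and 3 mitotic rows.

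Levels were compared between genes on the authors' FPKM scale, which divides by transcript length. The S-phase genes were the better expressed class. *Pcna*, the sliding clamp that holds DNA polymerase on its template, had the highest mean level of the 38 at 41.4 FPKM over the 12 libraries. *Mcm7*, a subunit of the replicative helicase, followed within the class at 8.23 FPKM and *Rrm1*, the large subunit of ribonucleotide reductase, at 6.75 FPKM. *Rrm2*, the small subunit of that enzyme, which is made mainly in S phase, was at 0.082 FPKM, with 0 counts in 3 libraries.

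The mitotic class was low apart from a pair of genes. *Ccna2*, the cyclin A that serves S phase and mitotic entry, averaged 14.4 FPKM and *Bub1b*, which encodes the spindle checkpoint protein BubR1, 9.89 FPKM. Together they made up 64.4 to 75.5% of the summed CPM of the mitotic genes in each library, so that sum follows them and not the class. The checkpoint kinase *Bub1* by contrast averaged 0.0384 FPKM, the spindle kinase *Aurkb* 0.0299 FPKM and the proliferation antigen gene *Mki67* 0.0723 FPKM. In all, 19 of 23 mitotic genes and 3 of 13 S-phase genes averaged under 1 FPKM, and 16 mitotic genes had under 100 counts in each library. *Ccna2* had 734 to 2263 counts over the 12 libraries and *Mcm7* 578 to 941. The reads of 9 members are uncertain because another listed gene overlaps them. In the S-phase class these are *Mcm7* (with *Cops6* and *Ap4m1*) and *Ccne2* (*Ints8*). In the mitotic class they are *Ccna2* (*Exosc9*), *Cdc20* (*Elovl1*), *Kif20a* (*Cdc23*), *Nusap1* (*Oip5*), *Prc1* (*Rccd1*) and *Ube2c* (*Tnnc2*). The last is *Ccnd1* (*LTO1*).

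**Figure D2:**
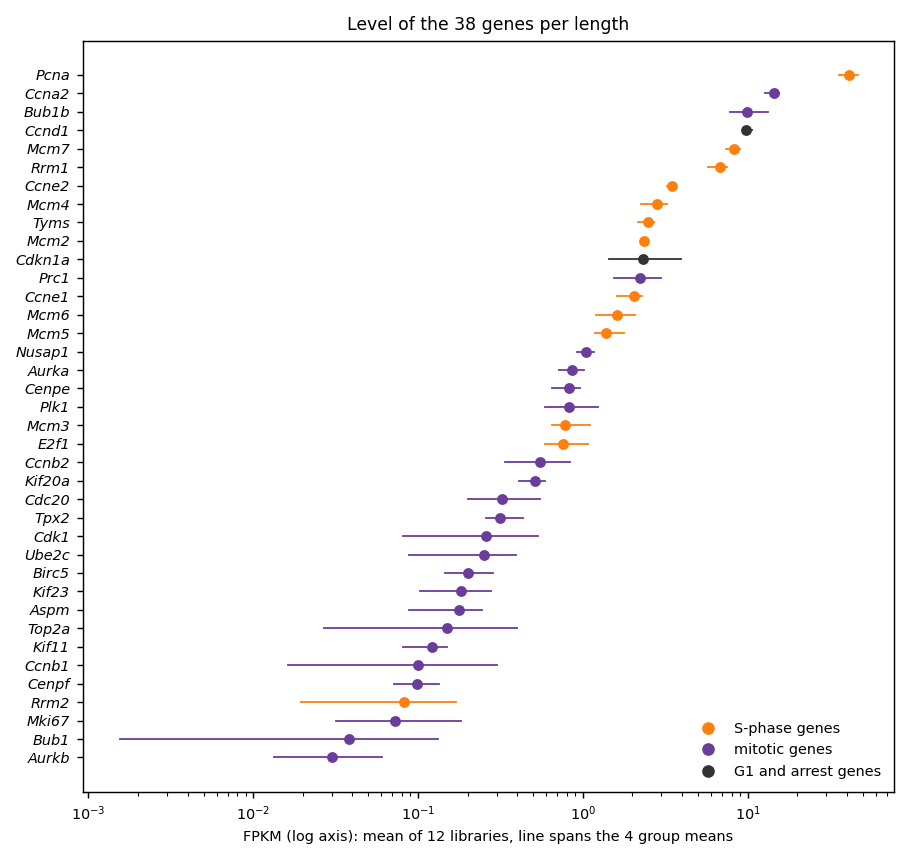
FPKM (log axis) of the 38 genes, ordered by the mean of 12 libraries (point); the line spans the 4 group means and colour gives the class. *Pcna* is highest at 41.4 FPKM and *Aurkb* lowest at 0.0299 FPKM, and 22 genes lie under 1 FPKM.

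The first comparison asked what NaIO3 did on the AL diet. By the test used here, edgeR's quasi-likelihood test with Benjamini-Hochberg adjustment and a minimum 1.5-fold change, 0 of the 38 genes was called in AL + NaIO3 against AL + PBS, where 0.0769% of the 15612 tested genes were called, 0.0512% higher and 0.0256% lower. At an unadjusted p under 0.05, 4 of the 35 members tested were higher (*Ccnb1*, *Top2a*, *Mki67* and *Cdkn1a*) and 0 lower, where 7.51% of all genes were higher and 2.74% lower. DESeq2, the other tool run, called 3 members higher (*Ccnb1*, *Top2a* and *Cdkn1a*), where it called 2.64% of genes, 2.37% higher and 0.27% lower. Without AL + NaIO3 replicate 3, an alternative added after seeing the data, DESeq2 called 1 member, *Ccnb1*, and 2.21% of all genes (348).

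*Mki67* (ENSMUSG00000031004, chr7:135689784-135716361, GRCm38), which encodes the Ki-67 coat protein of mitotic chromosomes, had 19, 29 and 2 counts in AL + PBS replicates 1 to 3 and 58, 76 and 69 in AL + NaIO3. In IF + PBS it had 8, 9 and 22 counts and in IF + NaIO3 26, 12 and 12. All 3 AL + NaIO3 libraries thus lay above the other 9. On the CPM scale the means were 0.453 ± 0.338 (SD, n = 3) in AL + PBS, 0.41 ± 0.236 in IF + PBS, 2.14 ± 0.486 in AL + NaIO3 and 0.497 ± 0.221 in IF + NaIO3. The log2 fold change of AL + NaIO3 against AL + PBS was 2.22 (SE 0.71), with an adjusted p of 0.343 by edgeR.

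*Top2a* (ENSMUSG00000020914, chr11:98992943-99024189), the topoisomerase that disentangles sister chromatids, had 12, 24 and 12 counts in AL + PBS and 35, 67 and 104 in AL + NaIO3. These groups did not overlap, but IF + PBS replicate 3, with 37 counts, exceeded the lowest AL + NaIO3 library, while the other IF + PBS libraries had 5 and 4. The log2 fold change was 2.22 (SE 0.50) with an adjusted p of 0.242 by edgeR and 0.0104 by DESeq2. Without AL + NaIO3 replicate 3 it was 1.95, with an adjusted p of 0.0725 by DESeq2.

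*Ccnb1* (ENSMUSG00000041431, chr13:100778650-100786570), the cyclin B that activates Cdk1 at mitotic entry, was barely detected in AL + PBS, at 2, 5 and 0 counts, and had 21, 31 and 34 in AL + NaIO3. The other groups held 7, 2 and 5 counts (IF + PBS) and 6, 8 and 0 (IF + NaIO3), again below each AL + NaIO3 library. The fitted log2 fold change, 3.72 (SE 0.81, adjusted p = 0.242 by edgeR), rests on 7 AL + PBS counts in all. *Ccnb1* passed the count filter only where AL + NaIO3, the group in which it was high, took part, so it had to differ to be tested, and neither its p, its DESeq2 call nor its place in any count of members is independent support. *Mki67*, *Birc5*, *Kif23* and *Ube2c* also met the filter with the help of AL + NaIO3, as 2 of the 3 AL + PBS libraries reached the level it asks of 3.

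The kinase that cyclin B activates showed no such separation. *Cdk1* had 49, 31 and 11 counts in AL + PBS, 11, 25 and 40 in IF + PBS, 14, 15 and 44 in AL + NaIO3 and 5, 19 and 18 in IF + NaIO3. The first comparison gave a log2 fold change of -0.28 (SE 0.67, adjusted p = 0.922 by edgeR). This turned to 0.40 without AL + PBS replicate 1 and was -0.85 without AL + NaIO3 replicate 3. The AL + PBS and AL + NaIO3 libraries overlapped. On the FPKM scale its group means, 0.536 in AL + PBS, 0.159 in IF + PBS, 0.254 in AL + NaIO3 and 0.0807 in IF + NaIO3, were ordered differently from the CPM means of 0.888, 0.802, 0.721 and 0.429.

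*Cdkn1a* (ENSMUSG00000023067, chr17:29090976-29100727) had 97, 144 and 106 counts in AL + PBS and 168, 198 and 456 in AL + NaIO3, and 93, 167 and 221 in IF + PBS and 162, 125 and 104 in IF + NaIO3. The highest of these came from AL + NaIO3 replicate 3, the library with the highest microglia and macrophage and stroma sums. The log2 fold change was 1.31 (SE 0.35), adjusted p = 0.284 by edgeR and 0.0188 by DESeq2. Without that library it was 0.90, with an adjusted p of 0.0622 by DESeq2. *Ccnd1*, the cyclin D that starts G1 progression, lay at 1293, 1944 and 1230 counts in AL + PBS, 1528, 1443 and 1485 in IF + PBS, 1157, 999 and 1852 in AL + NaIO3 and 1566, 1644 and 1307 in IF + NaIO3. The first comparison gave a log2 fold change of -0.05 (SE 0.16).

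**Figure D3:**
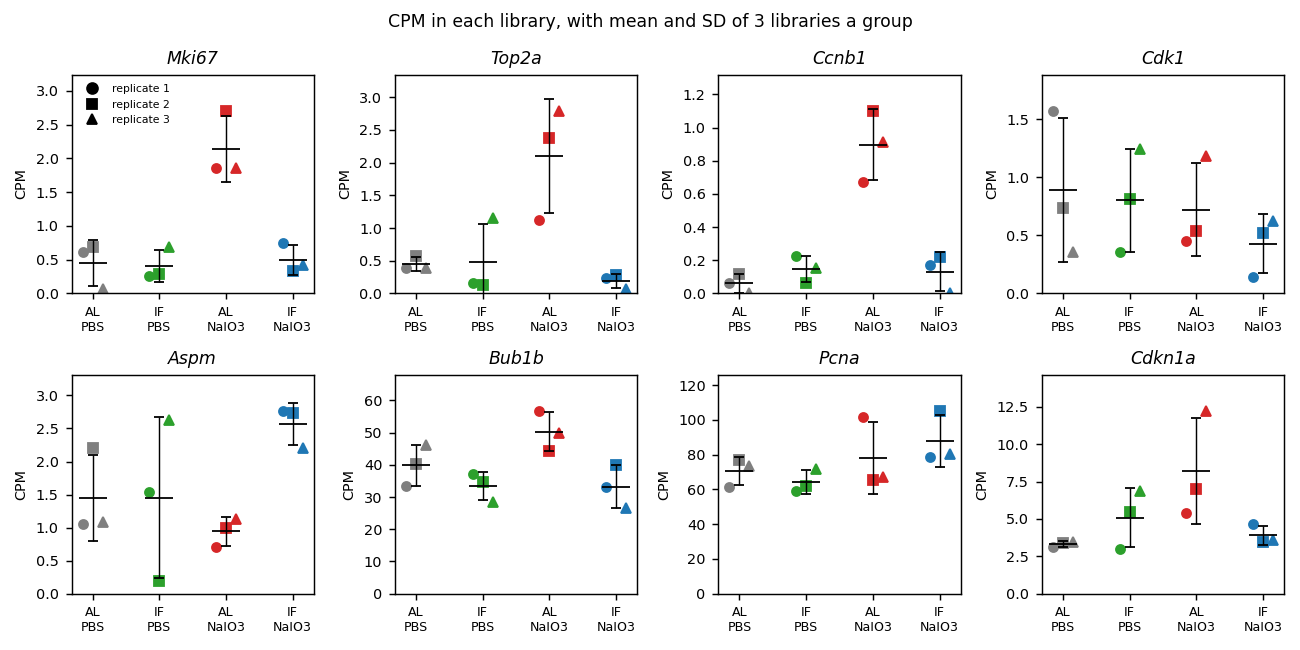
CPM of 8 genes in each of the 12 libraries (symbol gives the replicate, colour the group), with the mean (bar) and SD (whiskers) of 3 libraries; each vertical axis starts at 0. *Mki67* and *Ccnb1* lie higher in each AL + NaIO3 library than in the other 9, whereas for *Cdk1* and *Pcna* the AL + NaIO3 libraries overlap those of each other group.

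Across the mitotic class the median log2 fold change was 0.34 in this comparison, with 16 of 23 genes above 0, beside 0.01 for all genes tested. It ranged from 0.24 to 0.45 as each library was left out, and was 0.38 without AL + NaIO3 replicate 3. The S-phase median was 0.15, with 10 of 13 above 0. Complete separation of the groups was found for 8 members on the higher side (*Mki67*, *Top2a*, *Ccnb1*, *Ccnb2*, *Plk1*, *Mcm5*, *Mcm6* and *Cdkn1a*) and 1 on the lower side (*Mcm4*) of the 35 tested, where 9.8% and 8.32% of all genes separated. *Plk1*, the polo-like kinase of mitotic entry and exit, had 70, 73 and 75 counts in AL + PBS and 87, 117 and 92 in AL + NaIO3, a log2 fold change of 0.56 (SE 0.36). Its separation was narrow, with 2.47 CPM in AL + NaIO3 replicate 3 and 2.46 CPM in AL + PBS replicate 3.

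AL + NaIO3 exceeded each library of the other 3 groups for 3 of 21 mitotic genes (*Mki67*, *Ccnb1* and *Plk1*) and for 0 of 13 S-phase genes, where 4.49% of all genes did so. *Ccnb1* was among the 21 only because it was high in AL + NaIO3, and *Plk1* exceeded the others only by the narrow margin given above. AL + NaIO3 lay below each library of the other 3 groups for 0 members, where 1.9% of all genes did. Among related lists described further on, 0 of 59 other mitosis genes lay above all other libraries and 0 below. Of 54 other replication genes, 0 lay above and 3 below (*Pold1*, *Rfc3* and *Lig1*). The other G1 and E2F-Rb genes had 2 of 24 above and 2 below, and the p53 targets 2 of 22 and 0. Within the S-phase class the helicase subunits lay on both sides of 0. *Mcm5* (log2 fold change 0.50, SE 0.25), *Mcm6* (0.48, SE 0.25) and *Mcm3* (0.57, SE 0.45) were on one side of 0 while *Mcm4* (-0.31, SE 0.17), *Mcm7* (-0.09, SE 0.15) and *Mcm2* (-0.01, SE 0.19) were on the other, and none had an unadjusted p under 0.05 by edgeR. Without AL + NaIO3 replicate 3 *Mcm6* was at 0.29. *Mcm5* had 143, 154 and 136 counts in AL + PBS and 170, 174 and 231 in AL + NaIO3, *Mcm6* 162, 280 and 186 against 233, 202 and 381, and *Mcm4* 464, 579 and 428 against 379, 288 and 436. These 3 separated once scaled for library size, although the counts themselves overlapped for *Mcm6* and *Mcm4*. *Pcna* had 1923, 3256 and 2250 counts in AL + PBS and 3188, 1836 and 2498 in AL + NaIO3, a log2 fold change of 0.15 (SE 0.19) that turned to -0.10 without AL + NaIO3 replicate 1.

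Markers of other cell types moved with these genes. The AL + NaIO3 libraries held more of 18 microglia and macrophage markers (305, 239 and 1210 CPM in replicates 1 to 3, at most 109 CPM elsewhere), of 15 lymphocyte markers (7.16, 8.88 and 17.6 CPM, at most 3.29 elsewhere), of 11 neutrophil markers (4.85, 5.79 and 7.68 CPM, at most 4.49 elsewhere) of 12 endothelial markers (361, 385 and 677 CPM, at most 344 elsewhere) and of 12 Müller glia and astrocyte markers (6310, 6490 and 9410 CPM, at most 6180 elsewhere). No list had a marker at 0 in all 12 libraries, but only 1 of the lymphocyte and 1 of the neutrophil markers averaged at least 1 CPM. *Mki67* (2.70 CPM), *Ccnb1* (1.10 CPM) and *Plk1* (4.16 CPM) were highest in replicate 2. That library had the lowest microglia and macrophage sum of the 3 and the highest corneal and conjunctival epithelium sum of all libraries. *Top2a* (2.79 CPM) and *Cdkn1a* (12.2 CPM) were highest in replicate 3, where the microglia and macrophage sum was highest. The part of any of these cell types in the mitotic transcripts was not tested.

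**Figure D4:**
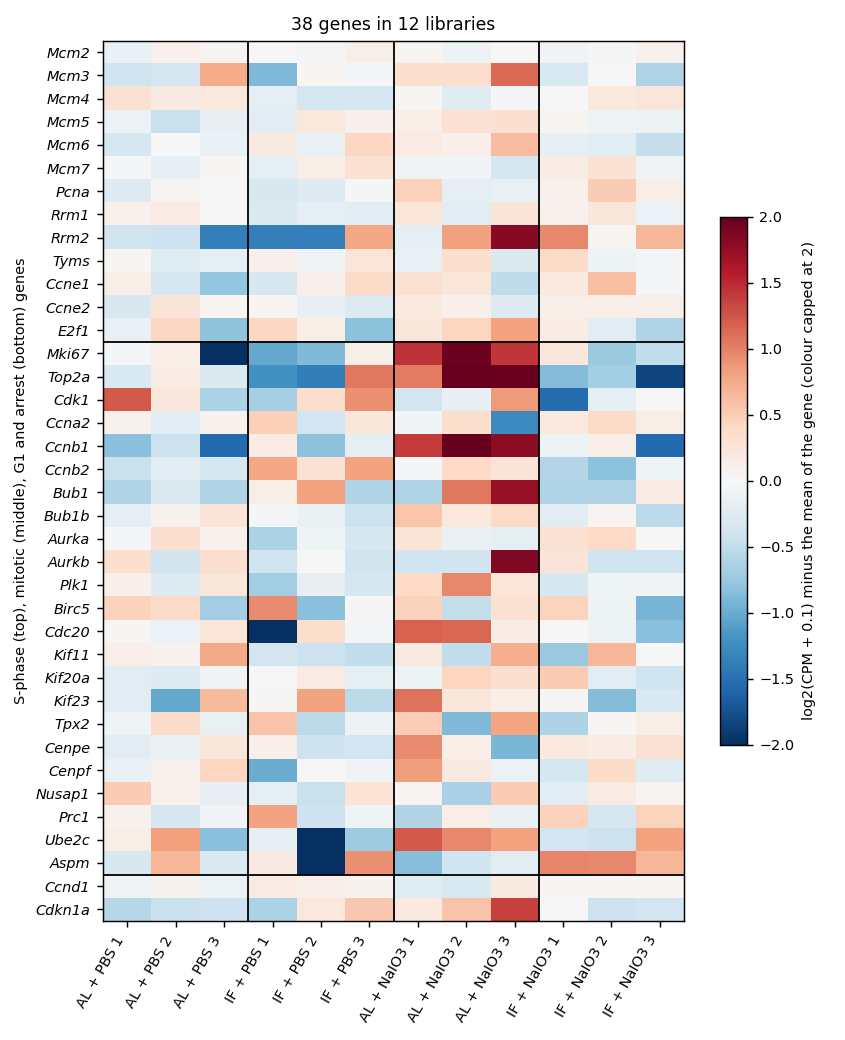
Each of the 38 genes (rows, by class) in each library (columns, by group), coloured by log2(CPM + 0.1) minus the mean of that gene and capped at 2. *Mki67*, *Top2a* and *Ccnb1* are red in the 3 AL + NaIO3 columns, while most S-phase rows stay pale in each group.

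The second comparison asked how these transcripts differed between the diets after NaIO3. In IF + NaIO3 against AL + NaIO3, 0 members were called by edgeR, where 0.0383% of 15648 genes were called. At an unadjusted p under 0.05, 8 of 36 members tested were lower and 1 higher, where 8.22% of genes were lower and 3.46% higher. DESeq2 called *Top2a* and *Mki67* lower and *Aspm* higher, beside 3.06% of all genes (2.72% lower and 0.339% higher), and called the same 3 members, beside 1.73% of all genes (272), without AL + NaIO3 replicate 3. *Top2a* and *Ccnb1* met the count filter here only through AL + NaIO3, where they were high, with 0 of 3 IF + NaIO3 libraries at its level, so they had to differ to be tested and their p-values, calls and places in the counts of members are descriptions and no support. *Ube2c* had 1 of 3 IF + NaIO3 libraries at that level, and *Rrm2*, *Cdk1*, *Birc5*, *Cdc20* and *Kif23* had 2. This comparison uses the same AL + NaIO3 libraries as the first, so values opposite to those given above are partly the same measurements.

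For *Top2a* the IF + NaIO3 libraries held 8, 10 and 2 counts, each below the 35, 67 and 104 of AL + NaIO3. The log2 fold change was -3.42 (SE 0.66), with an adjusted p of 0.168 by edgeR and 0.000453 by DESeq2. *Mki67* differed by -2.10 (SE 0.50), adjusted p = 0.223 by edgeR and 0.015 by DESeq2. Both genes had complete separation of the groups, as did *Ccnb1* at -2.71 (SE 0.87, adjusted p = 0.323 by edgeR).

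For *Aspm* the order of these groups was reversed. This gene encodes a spindle pole protein best known from dividing neural progenitors (ENSMUSG00000033952, chr1:139454772-139494091). It had 22, 28 and 42 counts in AL + NaIO3 and 96, 99 and 64 in IF + NaIO3, a log2 fold change of 1.43 (SE 0.40, adjusted p = 0.269 by edgeR and 0.0491 by DESeq2). The PBS groups were wide, at 33, 93 and 33 counts in AL + PBS and 48, 6 and 85 in IF + PBS, and overlapped both NaIO3 groups. The *Aspm* promoter, like those of *Top2a* and *Mki67*, held a CHR match, at 7 bases after the start.

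The other members lower at an unadjusted p under 0.05 were *Bub1b*, *Cdc20*, *Cdkn1a*, *Mcm3* and *Mcm6*. *Bub1b*, the best covered of them, had 1763, 1249 and 1852 counts in AL + NaIO3 and 1155, 1447 and 769 in IF + NaIO3, equal to 56.6, 44.4 and 49.8 CPM against 33.2, 39.9 and 26.5 CPM. Its log2 fold change was -0.60 (SE 0.17, adjusted p = 0.282 by edgeR). *Cdc20*, the activator of the anaphase-promoting complex, had 44, 39 and 24 counts against 20, 19 and 8 (-1.31, SE 0.57).

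*Mcm3* had 86, 79 and 183 counts in AL + NaIO3 and 61, 79 and 41 in IF + NaIO3 (-0.98, SE 0.39), and *Mcm6* 201, 209 and 140 in IF + NaIO3 (-0.61, SE 0.26). *E2f1*, which encodes a transcription factor of the S-phase genes, had 87, 91 and 157 against 91, 74 and 44 (-0.74, SE 0.37, adjusted p = 0.483 by edgeR). *Cdkn1a* was at -1.09 (SE 0.36), moving to -0.68 without AL + NaIO3 replicate 3.

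The median of the mitotic class was -0.60, with 19 of 23 genes below 0, beside -0.01 for all genes tested. It was -0.38 without AL + NaIO3 replicate 3. For the S-phase class the median was 0.00, with 7 genes above 0 and 6 below. Complete separation was found for 14 members on the lower side, 9 of them mitotic and *Top2a*, *Ccnb1*, *Cdc20* and *Ube2c* among these, and for *Aspm* on the higher side, where 10.2% of all genes separated lower and 8.68% higher. *Cdc20* and *Ube2c* are among the members that another gene overlaps.

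**Figure D5:**
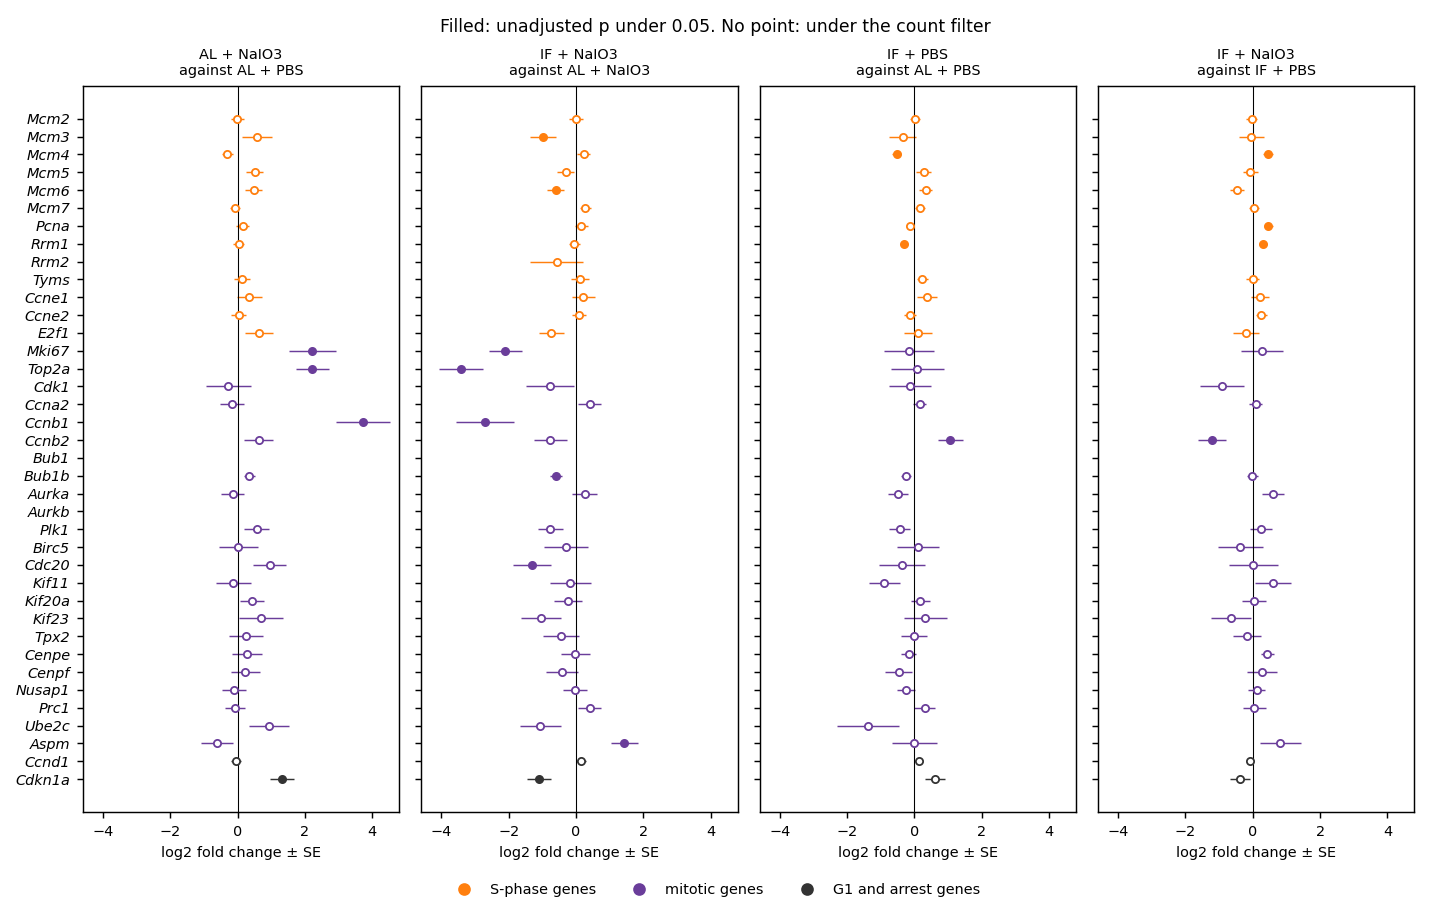
Log2 fold change (point) with its SE (line) by edgeR for the members tested in each of the 4 comparisons, coloured by class; filled points have an unadjusted p under 0.05, and none passed adjustment. In the second panel *Top2a* lies at -3.42 and *Aspm* at 1.43; the first and second panels share the AL + NaIO3 libraries.

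In the eyes without NaIO3, fasting was compared with AL feeding. In IF + PBS against AL + PBS, 0 members were called by edgeR or by DESeq2, where edgeR called 0% and DESeq2 1.33% of all genes (0.586% higher and 0.748% lower). DESeq2 gave an adjusted p to 26 of the 38 members, 12 of them mitotic, and could call only these. At an unadjusted p under 0.05, 1 of 34 members tested was higher and 2 lower, where 8.22% and 8.85% of genes were. *Mcm4*, a helicase subunit, had 464, 579 and 428 counts in AL + PBS and 328, 290 and 305 in IF + PBS, so the groups did not overlap. Its log2 fold change was -0.53 (SE 0.14, adjusted p = 0.176 by edgeR and 0.0343 by DESeq2), a difference under 1.5-fold. Without IF + PBS replicate 1, *Mcm4* (-0.59, adjusted p = 0.0342 by edgeR) and *Cdkn1a* (0.88, adjusted p = 0.0389 by edgeR) were called, as were 3.03% of all genes (472).

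*Rrm1* had 1038, 1492 and 954 counts in AL + PBS and 801, 855 and 866 in IF + PBS. It was at -0.31 (SE 0.10) and *Ccnb2*, a second B-type cyclin, at 1.07 (SE 0.37) in the same comparison. *Ccnb2* had 21, 34 and 22 counts in AL + PBS and 53, 37 and 56 in IF + PBS, without overlap. Neither passed adjustment, with adjusted p = 0.205 and 0.219 by edgeR. The *Mki67* groups overlapped (log2 fold change -0.16, SE 0.75), as did those of *Top2a* (0.09, SE 0.79), and leaving out single libraries turned the direction of both. *Kif11*, the motor that builds the bipolar spindle, had 24, 31 and 38 counts in AL + PBS and 16, 15 and 15 in IF + PBS (-0.89, SE 0.45, adjusted p = 0.339 by edgeR). *Bub1b*, at 1041, 1704 and 1403 counts against 1160, 1068 and 921, was at -0.25 (SE 0.14). Complete separation was found for 2 members higher (*Ccnb2* and *Ccnd1*) and 4 lower (*Mcm4*, *Rrm1*, *Aurka* and *Kif11*), where 10.3% and 11.6% of all genes separated. The medians were 0.10 for the S-phase class, with 8 of 13 above 0, and -0.14 for the mitotic class, with 10 of 23 above 0. Without IF + PBS replicate 3 they were -0.02 and -0.45.

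NaIO3 on the fasting diet was examined in IF + NaIO3 against IF + PBS. Again 0 members were called by edgeR or DESeq2, where edgeR called 0% and DESeq2 0.737% of all genes (0.433% higher and 0.304% lower). DESeq2 gave an adjusted p to 10 of the 38 members, 2 of them mitotic, so its count of 0 says nothing of the other 28. At an unadjusted p under 0.05, 3 of 32 members tested were higher (*Pcna*, *Mcm4* and *Rrm1*) and 1 lower (*Ccnb2*), where 8.47% and 6.72% of genes were. *Pcna* had 1845, 1898 and 2316 counts in IF + PBS and 2729, 3827 and 2329 in IF + NaIO3, or 59.0, 61.8 and 71.8 CPM against 78.5, 105 and 80.2 CPM. The groups did not overlap, and the log2 fold change was 0.46 (SE 0.13, adjusted p = 0.220 by edgeR).

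*Mcm4*, with 417, 510 and 412 counts in IF + NaIO3, was at 0.45 (SE 0.16) and *Rrm1*, with 1149, 1330 and 836, at 0.30 (SE 0.12). *Ccnb2* was at -1.22 (SE 0.42), with 21, 18 and 26 counts in IF + NaIO3. *Top2a*, *Ccnb1*, *Ube2c*, *Rrm2*, *Bub1* and *Aurkb* had too few counts to be tested here, which sets a limit of detection and does not show their absence. *Aurka*, a centrosomal kinase, had 36, 53 and 47 counts in IF + PBS and 80, 89 and 54 in IF + NaIO3 (0.61, SE 0.33), and *Cenpe*, the kinetochore motor, 241, 165 and 177 against 285, 289 and 258 (0.43, SE 0.20). Complete separation was found for 6 members higher and 3 lower, where 10.2% and 10.7% of all genes separated. The medians were 0.03 for the S-phase and 0.04 for the mitotic class, beside 0.00 for all genes, the mitotic median being -0.10 without IF + NaIO3 replicate 1.

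The members not yet named with counts had no unadjusted p under 0.05 by edgeR in any comparison. In the S-phase class these were *Mcm2* (249 to 427 counts over the 12 libraries), the thymidylate synthase gene *Tyms* (251 to 427) and the E-type cyclins *Ccne1* (82 to 258) and *Ccne2* (292 to 591). Their log2 fold changes lay between -0.12 and 0.37 over the 4 comparisons. In the mitotic class they were the kinesins *Kif20a* (42 to 97 counts) and *Kif23* (9 to 39), the spindle genes *Tpx2* (21 to 97), *Nusap1* (73 to 219) and *Prc1* (110 to 298), the kinetochore gene *Cenpf* (18 to 71), the survivin gene *Birc5* (6 to 32) and the ubiquitin-conjugating enzyme gene *Ube2c* (0 to 31). *Kif23* was at 0.70 (SE 0.65) and *Ube2c* at 0.93 (SE 0.60) in AL + NaIO3 against AL + PBS and neither had an unadjusted p under 0.05 by edgeR. *Rrm2* had at most 30 counts, *Bub1* at most 15 and *Aurkb* at most 14, each in AL + NaIO3 replicate 3.

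Whether the NaIO3 difference itself depended on diet was tested as an interaction over the 12 libraries. By edgeR 0 of 36 members passed an adjusted p of 0.05, where 0.0313% of 15970 genes did, and 6 had an unadjusted p under 0.05, where 12% of genes did. DESeq2 passed 1 member, *Mcm4*, beside 1.35% of all genes, and without AL + NaIO3 replicate 3 passed none of the 26 members given an adjusted p, beside 1.08% of all genes. The interaction of *Mcm4* was 0.78 (SE 0.21, adjusted p = 0.238 by edgeR) on the log2 scale, that of *Cdkn1a* -1.68 (SE 0.48, adjusted p = 0.261), that of *Top2a* -3.49 (SE 1.12, adjusted p = 0.293) and that of *Mki67* -1.94 (SE 0.97, adjusted p = 0.437). A different NaIO3 response of these genes under the diets was therefore not shown by edgeR.

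The wider pathway was examined through 4 further lists, each with 0 genes called by edgeR in each of the 4 comparisons. The counts of their genes at an unadjusted p under 0.05 stand beside shares of all genes of 7.51% higher and 2.74% lower in AL + NaIO3 against AL + PBS, 3.46% and 8.22% in IF + NaIO3 against AL + NaIO3, 8.22% and 8.85% in IF + PBS against AL + PBS, and 8.47% and 6.72% in IF + NaIO3 against IF + PBS. DESeq2 called 2.64%, 3.06%, 1.33% and 0.737% of all genes in the same order. Among 55 other replication genes, 1 was higher and 3 lower of 53 tested at an unadjusted p under 0.05 in AL + NaIO3 against AL + PBS (all genes 7.51% and 2.74%), and 4 were higher and 1 lower of 54 in IF + NaIO3 against AL + NaIO3. *Cdc7*, the kinase that fires replication origins, had 1401, 1766 and 1540 counts in AL + PBS, 806, 1013 and 961 in AL + NaIO3 and 1576, 1854 and 1415 in IF + NaIO3. Its log2 fold changes were -0.64 and 0.72 in these comparisons, with adjusted p of 0.28 and 0.208 by edgeR. DESeq2 called it in both. In IF + PBS against AL + PBS, 2 were higher and 2 lower, and *Rfc2*, a clamp loader subunit, had the smallest p (0.37, adjusted p = 0.186 by edgeR; 1601, 1728 and 1449 counts against 1805, 1890 and 1973). In IF + NaIO3 against IF + PBS, 5 were higher and 1 lower, and *Tipin*, a replication fork protection gene, had 460, 390 and 470 counts against 622, 851 and 575 (0.54, adjusted p = 0.214 by edgeR).

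Among 65 other mitosis genes, 2 were higher and 1 lower of 56 tested at an unadjusted p under 0.05 in AL + NaIO3 against AL + PBS (all genes 7.51% and 2.74%), with a median log2 fold change of 0.14. *Gtse1*, a microtubule-binding protein of G2 and mitosis, had the smallest p there, at 7, 15 and 8 counts in AL + PBS and 22, 21 and 59 in AL + NaIO3 (log2 fold change 1.84, adjusted p = 0.323 by edgeR). It met the count filter with the help of AL + NaIO3, where it was high, so this p is a description and no support. In IF + NaIO3 against AL + NaIO3, 2 were higher and 4 lower, with a median of -0.09. There *Kifc5b*, a kinesin, had 105, 138 and 127 counts in AL + NaIO3 and 260, 331 and 256 in IF + NaIO3 (1.11, adjusted p = 0.234 by edgeR). These medians stand beside 0.34 and -0.60 for the mitotic members, a difference that was not tested. In the comparisons with IF + PBS, 3 were higher and 3 lower against AL + PBS, and 5 higher and 1 lower in IF + NaIO3. *Cdc25c*, a phosphatase that activates Cdk1, had 66, 59 and 48 counts in AL + PBS and 120, 95 and 110 in IF + PBS (1.03, adjusted p = 0.182 by edgeR), and the condensin gene *Smc4* 1476, 1046 and 1562 in IF + PBS and 2375, 3376 and 1870 in IF + NaIO3 (0.80, adjusted p = 0.211 by edgeR). DESeq2 called *Kifc5b*, *Cdc25c* and *Smc4* in these comparisons.

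Of 25 other G1 cyclins, kinases, inhibitors and E2F-Rb genes, 3 were higher and 1 lower of 23 tested at an unadjusted p under 0.05 in AL + NaIO3 against AL + PBS (all genes 7.51% and 2.74%). *Ccnd2*, a second D-type cyclin, had 722, 1067 and 643 counts in AL + PBS and 1029, 871 and 3462 in AL + NaIO3 (1.19, adjusted p = 0.373 by edgeR), the highest value again in replicate 3. In IF + PBS against AL + PBS *Rb1*, the retinoblastoma gene, had 1324, 947 and 1071 counts in IF + PBS against 1459, 2383 and 1777 in AL + PBS, a log2 fold change of -0.60 (adjusted p = 0.175 by edgeR), and 1523, 1754 and 1645 in IF + NaIO3 (0.49 against IF + PBS, adjusted p = 0.220 by edgeR). *Tfdp1*, the partner of E2F, had 1667, 1659 and 2054 counts in AL + NaIO3 and 2503, 2635 and 2128 in IF + NaIO3 (0.37, adjusted p = 0.277 by edgeR). In these 3 comparisons 3, 2 and 1 genes of the list were higher and 3, 0 and 4 lower, in the order given. DESeq2 called *Rb1* in IF + PBS against AL + PBS and *Ccnd2* in IF + NaIO3 against AL + NaIO3.

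The 23 p53 targets other than *Cdkn1a* included 4 higher and 0 lower of 22 tested at an unadjusted p under 0.05 in AL + NaIO3 against AL + PBS (all genes 7.51% and 2.74%), and 0 higher and 4 lower of 22 in IF + NaIO3 against AL + NaIO3 (3.46% and 8.22%), comparisons that share the AL + NaIO3 libraries. *Fas*, a death receptor gene also made by leukocytes, had 20, 33 and 20 counts in AL + PBS and 89, 101 and 215 in AL + NaIO3 (2.56, adjusted p = 0.109 by edgeR). *Gadd45b*, a stress gene, had 618, 541 and 1164 counts in AL + NaIO3 and 356, 341 and 237 in IF + NaIO3 (-1.35, adjusted p = 0.135 by edgeR). Each AL + NaIO3 library exceeded the libraries of the other 3 groups for both genes, 2 of the 22 tested, where 4.49% of all genes did so. DESeq2 called both in both comparisons, beside 2.64% and 3.06% of all genes. In IF + PBS against AL + PBS 2 were higher and 3 lower, and in IF + NaIO3 against IF + PBS 2 were higher and 0 lower. *Trp53inp1*, a stress-induced p53 target, had the smallest p in both, with 1489, 2319 and 1624 counts in AL + PBS, 1495, 1087 and 1215 in IF + PBS and 1753, 2386 and 1637 in IF + NaIO3 (-0.36 and 0.51, adjusted p = 0.217 and 0.212 by edgeR).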

How the data were processed

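RNA from the eye cups of 12 mice was sequenced by the study (stranded kit per the labels, which name a PE150 run, while the methods state single-end reads of 150 bp). The methods state mapping to GRCm39 and DESeq2 for differential expression of IF + NaIO3 against AL + NaIO3. HISAT2, StringTie and edgeR are named in the submitters' processing notes with no role given, and the annotation and the use of strand in counting are not given in the sources used here. Coordinates in the files overlapped RefSeq GRCm38.p6 genes of the same name for 38 of 38 members, so they are given as GRCm38 although the stated build is GRCm39. The authors deposited raw read counts per gene, used for all tests, and FPKM values, used only to compare levels between genes. A further deposited file holds the authors' own fold changes and p-values and was not used. Each column matched 1 sample.

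Counts were scaled by TMM, filtered with filterByExpr per comparison and tested in R 4.3.3 with edgeR 4.0.16 (quasi-likelihood, 2 groups of 3 per fit, two-sided), p-values adjusted by Benjamini-Hochberg over all genes tested. Genes were called where the adjusted p was below 0.05 and the groups differed by at least 1.5-fold, the limits of the study's methods. DESeq2 1.42.0, other scalings and filters, 1 fit of 12 libraries, a replicate block and leaving out each library were alternatives. Medians over a class include members under the filter, fitted without it. CPM are TMM-scaled over 12 libraries. The procedure was tested on simulated data. Only genes averaging above 1 CPM were changed there, so recovery was not measured for members under that level. Libraries of a group differed by far more than sampling noise. The members and lists were chosen with earlier results of these data known. Named with counts were *Mki67*, *Top2a*, *Cdk1*, *Ccnd1*, *Cdkn1a*, *Aspm*, *Pcna*, members called, those with the 3 smallest p of a class per comparison, the 2 with the highest FPKM of a class, and the smallest p of each further list; the remaining genes given with values, such as *Plk1*, were chosen after their values were seen. Printed promoter bases stop before any base held by a GENCODE transcript of the gene, except for the 30-base stretches.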

Additional observations from a re-analysis of the deposited data

Results flagged for a closer look

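For 3 members every NaIO3 library lay on one side of the PBS libraries under AL and on the opposite side under IF. They were 3 of the 36 members tested over the 12 libraries, where 196 of 15970 genes (1.23%) showed this. *Mcm4* was lower with NaIO3 under AL (14.9, 13.7 and 14 CPM in AL + PBS, 12.2, 10.2 and 11.7 CPM in AL + NaIO3) and higher under IF (10.5, 9.44 and 9.45 CPM in IF + PBS, 12, 14 and 14.2 CPM in IF + NaIO3), a difference between the diets of 0.78 on the log2 scale. *Mcm6* went from 5.2, 6.61 and 6.09 CPM to 7.48, 7.18 and 10.2 CPM under AL and from 7.58, 6.02 and 8.89 CPM to 5.78, 5.76 and 4.82 CPM under IF, a difference of -0.93. *Ccnb2* went from 0.674, 0.803 and 0.721 CPM to 0.931, 1.28 and 1.16 CPM under AL and from 1.7, 1.2 and 1.74 CPM to 0.604, 0.496 and 0.896 CPM under IF, a difference of -1.82. In edgeR's interaction test the adjusted p was 0.238, 0.313 and 0.286 respectively, so none of these differences passed, and *Mcm4* alone passed with DESeq2, though not without AL + NaIO3 replicate 3. The log2 fold change of *Mcm4* in AL + NaIO3 against AL + PBS was -0.31 with that library and -0.34 without it.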

How the results depend on the processing

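The number of members called by edgeR stayed at 0 under upper quartile scaling, without the count filter, with at least 10 counts in each library, in 1 fit of 12 libraries, without a minimum fold and with a replicate block, in each comparison and, where they apply, in the interaction. DESeq2 called 3 members in AL + NaIO3 against AL + PBS, 3 in IF + NaIO3 against AL + NaIO3 and 1 in the interaction. Without AL + NaIO3 replicate 3, added after seeing the data, DESeq2 gave 1, 3 and 0, and a mitotic median of -0.38 in IF + NaIO3 against AL + NaIO3. Over all genes, edgeR called 12, 6, 0 and 0 in the order in which the comparisons were described, 1 fit of 12 libraries 177, 190, 0 and 0, and DESeq2 411, 478, 189 and 80. Leaving out single libraries moved the edgeR counts over all genes to 0 without any of the AL + PBS libraries and 90 without AL + NaIO3 replicate 3 in the first comparison, 0 to 75 in the second (75 without AL + NaIO3 replicate 3), 1 to 472 and 0 to 197 in the others (472 and 197 without IF + PBS replicate 1), and 3 to 366 in the interaction (366 without AL + NaIO3 replicate 1, 5 with all libraries). The cause of the difference between these fits was not tested. Among the members, edgeR then called 0 to 2 members in IF + PBS against AL + PBS and 0 elsewhere. The mitotic median then ranged from 0.24 to 0.45 in AL + NaIO3 against AL + PBS, -0.70 to -0.38 in IF + NaIO3 against AL + NaIO3, -0.45 to -0.06 in IF + PBS against AL + PBS and -0.10 to 0.19 in IF + NaIO3 against IF + PBS, and the S-phase median from 0.16 to 0.24, -0.05 to 0.05, -0.02 to 0.14 and 0.01 to 0.15 in the same order. The genes that follow turned direction, and none was called by edgeR in the comparison in which it turned. Leaving out single libraries in AL + NaIO3 against AL + PBS gave *Ccnd1* -0.23 to 0.03, *Cdk1* -0.85 to 0.40 and *Pcna* -0.10 to 0.26. In IF + PBS against AL + PBS it gave *Aspm* -0.74 to 0.52, *Cdk1* -0.59 to 0.54, *Mki67* -0.73 to 0.28 and *Top2a* -1.60 to 0.54, and in IF + NaIO3 against IF + PBS *Mki67* -0.15 to 0.85. With the replicate block, *Aspm* was at -0.24 and *Top2a* at -0.41 in IF + PBS against AL + PBS. Same-numbered libraries did not deviate together (correlations -0.101 to 0.138), so the numbers were not taken to pair the mice, and the block moved no call among the members. With 16 mitotic members under 100 counts in each library and 3 libraries per group, a small difference may have gone uncalled. The smallest difference that could be called in these members was not measured.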
